A study of Homo sapiens with 9 samples.

Results

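Messenger RNA levels of 52 genes of mitosis and of the G2/M transition were examined in cultured SKNO-1 cells. The genes are a named list, and each was found by its symbol among the 25680 gene symbols of the count files. Where a symbol had several RefSeq transcripts, the transcript with the highest total over all samples stood for the gene. All 52 were found and all 52 passed the filter on low counts, so that they form 52 of the 14199 genes tested. SKNO-1 is a human acute myeloid leukaemia line with the t(8;21) translocation, which makes the AML1-ETO (RUNX1-RUNX1T1) fusion protein, and by the study's methods it is grown with GM-CSF. The study lowered ASXL2, a chromatin regulator of the Additional sex combs family, with short hairpin RNAs, and asked what its loss changes in these cells.

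The 9 samples formed 3 groups of 3. All came from SKNO-1 cells with the fusion, and none is labelled with any other drug or treatment. EV is the control group, an abbreviation that the labels do not spell out, whereas the study describes a control hairpin. SH2 and SH3 are cells with either of a pair of hairpins against ASXL2. Within each group the samples are numbered 1, 13 and 25, and the labels do not say what these numbers stand for. Below, 3 values of a group are always given in the order number 1, number 13 and number 25. The label on RNA extraction describes sorted bone marrow cells, which does not match a cell line. The study speaks of 3 biological replicates per group, but nothing ties the numbers to separate cultures, so p-values measure the spread between these samples. All samples come from 1 cell line.

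Cells divide under the control of cyclin B or cyclin A bound to the kinase CDK1, which is switched on at the G2/M transition by CDC25 phosphatases. Polo-like and Aurora kinases then build the spindle, the spindle checkpoint holds the anaphase-promoting complex (APC/C) until the chromosomes are attached, and kinesins and cytokinesis proteins part the daughter cells. Most of these genes are transcribed late in the cell cycle by MYB-MuvB and FOXM1 through a promoter element called the CHR, often with CCAAT boxes bound by NF-Y upstream of it.

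The targeted gene checks the labels. ASXL2 was at 67.9, 67.9 and 74.7 CPM in EV, 30.4, 36.2 and 36.2 CPM in SH2 and 26.9, 29.1 and 41.1 CPM in SH3, where CPM are counts scaled to a common library size with TMM factors. Thus all 6 hairpin samples lay below all 3 EV samples. Totals with 1 transcript per gene ran from 27714431 to 35406063 counts, and the 52 genes took from 0.499% of them in SH3 number 1 to 0.705% in SH2 number 13. Among the genes listed as markers of the t(8;21) myeloblast line, RUNX1, RUNX1T1, KIT, MPO, CD33, ANPEP, POU4F1 and PAX5 passed the filter, and CD34 was near 0, at 0.309 CPM or less. MPO alone reached 6368 to 10243 CPM, against 74.1 to 105 CPM for the sum of 5 monocyte genes. Erythroid, T cell and epithelial lists summed to under 1 CPM in each sample, and 4 stromal genes to 0.957 to 2.03 CPM. SH3 number 1 stood apart in that the top 10 genes took 5.20% of its counts, against 3.84% to 4.72% in the others.

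In EV, MKI67, the Ki-67 antigen that coats mitotic chromosomes, averaged 479 ± 19.4 CPM (SD, n = 3), TOP2A, the topoisomerase that untangles sister DNA, 479 ± 7.72 CPM (SD, n = 3), and SMC4, a condensin subunit, 589.6 ± 26.2 CPM (SD, n = 3). Long transcripts collect more reads, so levels between genes are compared per kilobase of transcript. On that scale CKS2, a small CDK1 subunit, was highest in EV with 182 CPM per kilobase. SMC4 followed with 115, UBE2C, an E2 enzyme of the APC/C, with 105, PTTG1, the separase inhibitor securin, with 95.9, and BIRC5, survivin of the chromosomal passenger complex, with 85.6. CCNB1 (cyclin B1) stood at 75.9 and its partner CDK1 at 54.5 CPM per kilobase. The lowest were CDC25C, a phosphatase that activates CDK1, with 4.88, and ESPL1, separase, with 8.13 CPM per kilobase. No order within the list was tested. The lengths are those of an annotated transcript, which need not be the RefSeq transcript counted, so the order depends on that choice.

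Some values rest on rows that cannot be assigned with certainty. Of the 52 genes, 32 had more than 1 transcript row. They differed most for CDK1, whose lowest row held 0.373 times the count of the highest, so a shift between CDK1 isoforms would move its value. By the study's methods the libraries were unstranded, and 12 members share exonic bases with another protein-coding gene in the annotation. The longest overlap of all was 2938 bases, between NUSAP1 and an annotated gene without a name on the same strand. With named genes on the opposite strand the longest were 1634 bases between NCAPG and LCORL and 1552 bases between SMC4 and TRIM59. CCNA2 shares 254 bases with EXOSC9. Reads there cannot be told apart by strand. PTTG1 has intronless near copies elsewhere in the genome, so its count is uncertain in the same way.

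Sequence before the transcript start was available for 44 of the 52 genes, taken from RefSeq on build GRCh38.p14, a later build than the hg19 of the counts. Each window runs from 250 bases before the start to 50 bases after it. The CHR was searched as TTTGAA and as TTTAAA, and the CCAAT box as CCAAT, all on both strands. TTTAAA reads the same on both strands. TTTGAA on the sense strand, or TTTAAA, lay in 35 of the 44 genes and in 39 of their 56 windows (69.6%), against 18.7% of all 35116 windows of that length. TTTGAA on the sense strand alone was in 53.6% of the members' windows and in 8.4% of all windows, and on the antisense strand in 19.6% and 7.97%. TTTAAA was in 28.6% and 12.2%. CCAAT on either strand was in 71.4% of the members' windows and 34.6% of all. Only 2 of the 55 CHR-type matches overlapped a CCAAT match. Windows of 1 gene can overlap, matches are a description of letters and not of bound sites, and no match says only that these letters are not in the window. FOXM1, AURKA, BIRC5, BUB3, TTK, UBE2C, TPX2 and CDCA2 were not analysed here for sequence.

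The 100 bases just before the start are printed for 8 genes, 5′ to 3′ on the strand of the gene, with CHR-type matches in capitals. PLK1, CDC20, KIF23, CDCA8 and CCNA2 are shown because they were lower in the samples numbered 1 under every alternative tried, MKI67 because it had the lowest averaged hairpin difference, HMMR because its difference in the samples numbered 1 was near 0, and UBE2S because it was the member called between numbers 25 and 13. They lie at chr16:23678789-23678888, plus strand (PLK1), chr1:43358881-43358980, plus strand (CDC20), chr15:69414249-69414348, plus strand (KIF23), chr1:37692416-37692515, plus strand (CDCA8), chr4:121823884-121823983, minus strand (CCNA2), chr10:128126424-128126523, minus strand (MKI67), chr5:163460532-163460631, plus strand (HMMR) and chr19:55407789-55407888, minus strand (UBE2S).
PLK1: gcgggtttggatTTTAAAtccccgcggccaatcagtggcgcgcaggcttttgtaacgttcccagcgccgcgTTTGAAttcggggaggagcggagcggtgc
CDC20: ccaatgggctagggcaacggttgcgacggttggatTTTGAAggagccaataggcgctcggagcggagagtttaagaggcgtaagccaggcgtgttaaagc
KIF23: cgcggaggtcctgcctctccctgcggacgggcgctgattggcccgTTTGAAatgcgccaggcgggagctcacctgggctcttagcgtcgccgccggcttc
CDCA8: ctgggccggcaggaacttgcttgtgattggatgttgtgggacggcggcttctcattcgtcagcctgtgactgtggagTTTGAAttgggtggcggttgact
CCNA2: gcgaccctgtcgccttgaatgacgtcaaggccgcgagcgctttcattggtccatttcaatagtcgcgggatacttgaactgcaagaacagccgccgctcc
MKI67: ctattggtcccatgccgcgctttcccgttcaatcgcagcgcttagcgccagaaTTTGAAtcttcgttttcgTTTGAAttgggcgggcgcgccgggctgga
HMMR: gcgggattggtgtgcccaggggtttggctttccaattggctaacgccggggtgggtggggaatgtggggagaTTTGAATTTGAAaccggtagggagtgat
UBE2S: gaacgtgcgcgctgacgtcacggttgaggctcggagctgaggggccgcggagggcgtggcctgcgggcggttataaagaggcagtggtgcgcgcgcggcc

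PLK1, MKI67, CDCA8 and HMMR each hold TTTGAA beginning at base -29, -29, -23 and -28 from the start, in that order. MKI67 has a further match at -47 and HMMR one at -22, directly after the first, and PLK1 has TTTAAA at -88. In CDC20 and KIF23 it begins at -65 and -55. CCNA2 and UBE2S have no match in the printed stretch. Across the 44 genes, 26 of 55 CHR-type matches began within 60 bases before the start, and 41.1% of the members' windows held such a match, against 4.13% of all windows. That distance was chosen after the matches were seen.

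**Figure D1:**
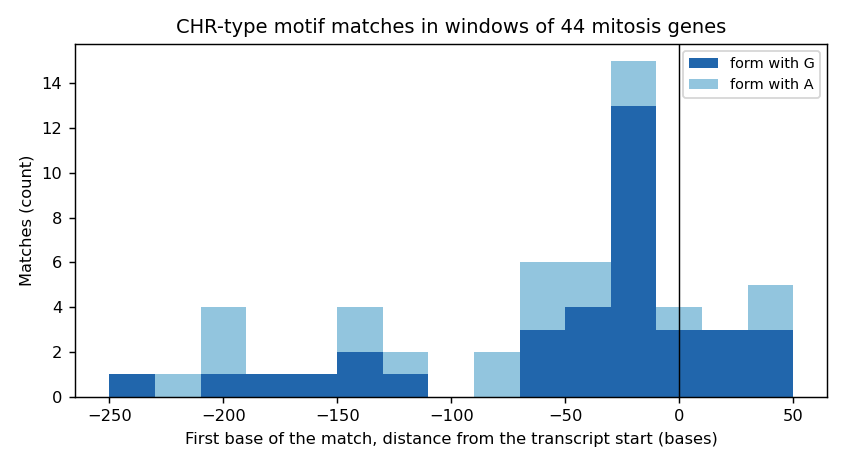
Position of CHR-type motif matches on the sense strand in the 56 promoter windows of 44 mitosis genes. The x axis gives the first base of each match as the distance from the transcript start in bases and the y axis the number of matches in 20-base bins, with the 36 matches of the form with G in dark blue and the 19 of the form with A in light blue; 26 of the 55 matches began 1 to 60 bases before the start.

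The hairpin comparisons ask whether the mitosis genes changed when ASXL2 was lowered. No member passed the test in any of them. The median difference of the 52 genes on the log2 scale was 0.09 for SH2 against EV, with 42 genes above 0, and 0.01 for SH3 against EV, with 27 genes above 0. Both hairpins averaged gave 0.06, and the median of all genes tested was 0.01. Below 0 lay 19.2% of the members for SH2 and 48.1% for SH3, against 48.6% and 46.9% of all genes. Both comparisons share the EV samples. edgeR's quasi-likelihood test, with p-values adjusted by Benjamini-Hochberg over all 14199 genes, called 0 members and 0% of all genes in each of these comparisons. That fit had no term for the number, so differences between numbers counted as spread within groups. At an unadjusted p under 0.05 it gave 1 member for SH2, 1 for SH3 and 2 for the average, against 5.37%, 5.09% and 6.63% of all genes. The standard errors of the members' averaged differences ran from 0.08 to 0.18 on the log2 scale in this fit. Differences of that size were not detectable at this spread. Larger ones also went uncalled, such as 0.24 for CKS1B (SE 0.08) and -0.41 for MKI67 (SE 0.17).

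The same-numbered samples of different groups deviated together, and with the number as a block the call stayed at 0 members in every hairpin comparison. The blocked fit called 0.282% of all genes for SH2, 0.416% for SH3 and 1.1% for the average. Its smallest adjusted p among the members was 0.116 for SH2, 0.109 for SH3 and 0.0727 for the average. Its standard errors for the members' averaged differences ran from 0.05 to 0.11 on the log2 scale. At an unadjusted p under 0.05 it gave 14, 5 and 7 members, which are 26.9%, 9.62% and 13.5% of the list, against 18.7%, 18.7% and 20.4% of all genes. DESeq2 called 0 members without the block and with the block it called 1 member in each of the SH2, SH3 and averaged comparisons, in each case MKI67. The blocked DESeq2 fits called 2.63%, 3.34% and 4.38% of all genes.

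MKI67 was the member furthest below 0. It stood at 459, 479.8 and 498 CPM in EV, 291, 438 and 372 CPM in SH2 and 256, 367 and 440.3 CPM in SH3. All 6 hairpin samples lay below the 3 EV samples, a pattern that 1.92% of the members and 2.61% of all genes showed. Averaged over the hairpins the difference had a log2 fold change of -0.41, SE 0.17, adjusted p = 0.742, and with the block a log2 fold change of -0.44, SE 0.11, adjusted p = 0.0727. DESeq2 with the block gave adjusted p = 0.00123. Over all 19 alternatives the log2 difference ranged from -0.50 to -0.24 and the adjusted p from 0.00123 to 1.00, and the smallest difference came with the block and an offset for transcript length. Ki-67 is the classical marker of cycling cells.

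CKS1B, the other CDK1 subunit of the CKS pair, went the other way without passing the test. It stood at 45.1, 48.1 and 49.6 CPM in EV, 58.5, 58.2 and 56.0 CPM in SH2 and 49.9, 60.9 and 54.6 CPM in SH3, so all 6 hairpin samples lay just above the 3 EV samples, as for 2.16% of all genes. Its averaged difference had a log2 fold change of 0.24, SE 0.08, adjusted p = 0.675, and an adjusted p of 0.0892 with the block. It was the member with the unadjusted p under 0.05 for SH2 (0.0164) and for SH3 (0.0493), and with MKI67 for the average. MAD2L1, the checkpoint protein MAD2, had a log2 difference of 0.23 on average (adjusted p = 0.097 with the block). ESPL1, separase, lay at -0.22 (adjusted p = 0.131 with the block). Neither passed the test in edgeR.

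The hairpin differences moved with transcript length. Across the 52 genes the Spearman correlation of the averaged log2 difference with the length of the annotated transcript was -0.74, and it was -0.41 across 13195 genes with a length. These are correlations across genes of the same samples, which are not independent replicates. The lengths need not be those of the RefSeq transcripts counted. The 18 shortest members, up to 2371 bases, had a median averaged difference of 0.12, and the 17 longest, from 4136 bases, one of -0.04. Each sample's slope of log2 CPM on log2 length was 0.34 to 0.37 in EV and 0.26 to 0.32 in the hairpin samples, so the groups did not overlap in it. Length thus moved with the hairpin groups, and its part in the difference of each gene was not tested. With the block and an offset for length fitted to each sample, the members' median averaged difference was 0.05, still with 0 calls. MKI67 and CENPF have the longest transcripts of the list, and CKS1B is among the shortest.

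**Figure D2:**
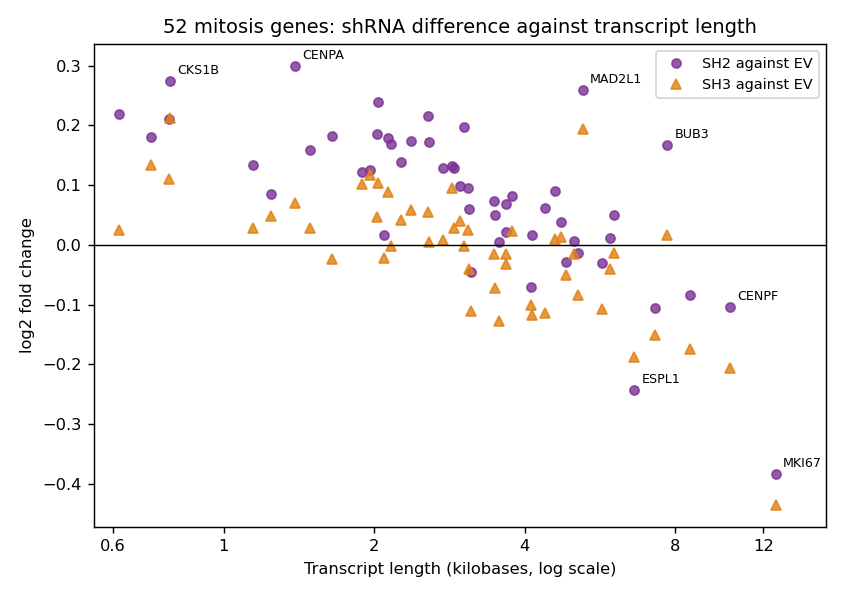
Log2 fold change of the 52 genes against transcript length. The x axis is the length of the annotated transcript in kilobases on a log scale, the y axis the log2 fold change, with purple circles for SH2 against EV and orange triangles for SH3 against EV. Short transcripts lie mostly above 0 and the longest, MKI67 with 12716 bases, lies at -0.38 and -0.44.

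SH3 against SH2 also gave 0 members called, against 0% of all genes, and 0 members at an unadjusted p under 0.05, against 2.06% of all genes. With the block it stayed at 0 members, with 0.106% of all genes called, and 5 members (9.62%) had an unadjusted p under 0.05, against 11.9% of all genes. The members lay together all the same, with 51 of 52 below 0 and a median of -0.09, against 49.2% and 0.00 for all genes. Leaving out certain samples moved this. Without SH3 number 1 the median was 0.01 with 23 genes below 0, without SH2 number 13 it was -0.03 with 36 below 0, and without all samples numbered 1 it was -0.02 with 35 below 0. By number, the median log2 difference to the EV sample of the same number was 0.17 for SH2 number 1 and -0.14 for SH3 number 1. Among the samples numbered 13 it was 0.11 for SH2 and 0.07 for SH3, and among those numbered 25 it was 0.02 for each. The median of SH3 against EV also changed sign between such fits, with a median of 0.10 without SH3 number 1, -0.10 without SH3 number 13 and -0.03 without EV number 1.

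The samples were also compared by number. Of the 52 genes, 22 were lower in samples numbered 1 than in those numbered 13 and 25, and none was higher. With the group as a term, 49 of 52 genes had a log2 fold change below 0, with a median of -0.17 against 0.01 for all genes tested. At an adjusted p under 0.05, 22 members (42.3%) were called and all 22 were lower. Of all genes, 22.2% were called lower and 24.1% higher, together 46.3%, so the share of members called was close to that of all genes, while the members' calls all lay in 1 direction. At an unadjusted p under 0.05 there were 30 members (57.7%), against 54.1% of all genes. In bulk RNA, fewer cells in mitosis and less of these RNAs per cell cannot be told apart.

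The call leans on certain samples. Without SH3 number 1 the count fell from 22 to 11, without EV number 25 to 14, without the EV group to 9 and without the SH3 group to 12. In all 4 cases no member was called higher. Over the 18 alternatives the calls among all genes ranged from 4472 to 6794, against 6570 in the main fit. The number of calls thus moved outside this list too. With an offset for transcript length 37 members were called, all lower, in a fit limited to the 13195 genes with a length. The share of all genes called is not given for each of these fits. The changes in the members' count therefore cannot be read as particular to the list. Over 18 alternatives between 46 and 50 genes lay below 0, and FOXM1, PLK1, CDC20, KIF23, CCNA2 and CDCA8 were called in each of them. CDC25C was called higher in 3 alternatives, without EV number 1, without EV number 13 and with transcript rows summed.

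Sample by sample, SH3 number 1 had the lowest value of all 9 for 38 of the 52 genes (73.1%), against 26.3% of all genes tested. In that sample 51 genes lay below their own mean over the 9 samples, with a median deviation of -0.23 on the log2 scale. EV number 1 had 42 genes below, with a median of -0.12. SH2 number 1 did not share this, with 21 genes below and a median of 0.03. The median deviation of all genes was 0.01 in each of these samples numbered 1. Even so, 36 of 52 genes were lower in SH2 number 1 than the mean of SH2 numbers 13 and 25, against 49.4% of all genes. The highest value lay in SH2 number 13 for 23 genes and in SH3 number 13 for 19, and the matching shares of all genes were not counted. All 3 samples numbered 1 lay below the other 6 for 10 genes (19.2%), against 12.1% of all genes. The 10 were CCNA2, FOXM1, PLK1, CDC20, KIF23, KIF4A, PRC1, SMC2, SMC4 and NCAPG. For no member did they lie above the other 6, against 14.4% of all genes. Number 1 was the lowest of its own group in all 3 groups for 16 members (30.8%), against 22.3% of all genes, and in no group for CDC25C, NUSAP1, HMMR and NCAPD2. It was the highest of its group in all 3 groups for no member, against 23.1% of all genes.

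**Figure D3:**
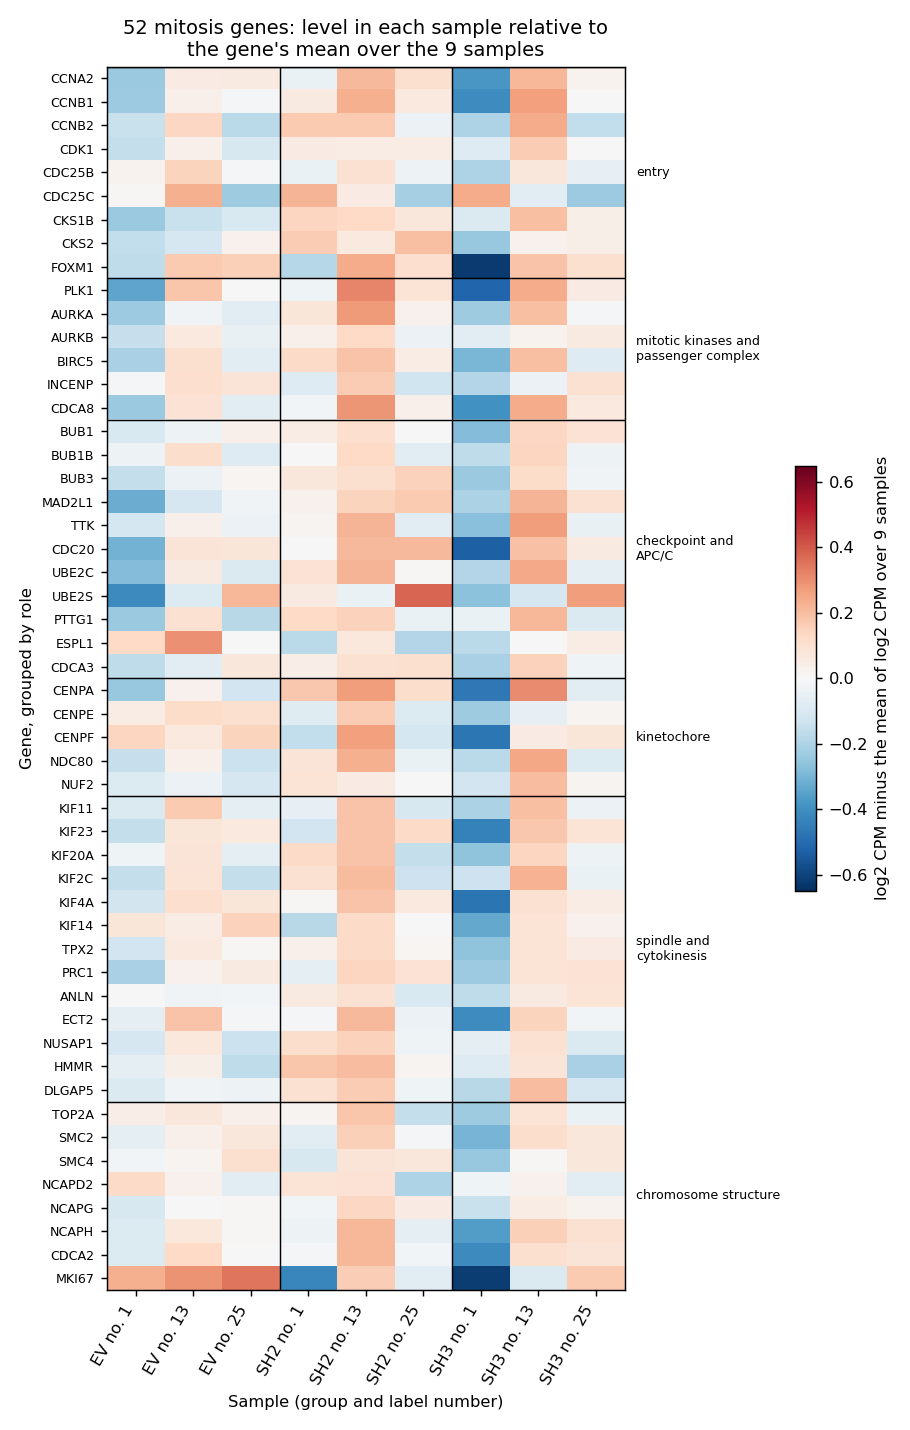
Level of each of the 52 genes (rows, grouped by role) in each of the 9 samples (columns), as log2 CPM minus the gene's mean of log2 CPM over the 9 samples, blue for lower and red for higher. The column of SH3 number 1 is blue for nearly all genes, EV number 1 is mostly pale blue, and SH2 number 13 and SH3 number 13 are mostly red, while the MKI67 row is red in all 3 EV samples.

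**Figure D4:**
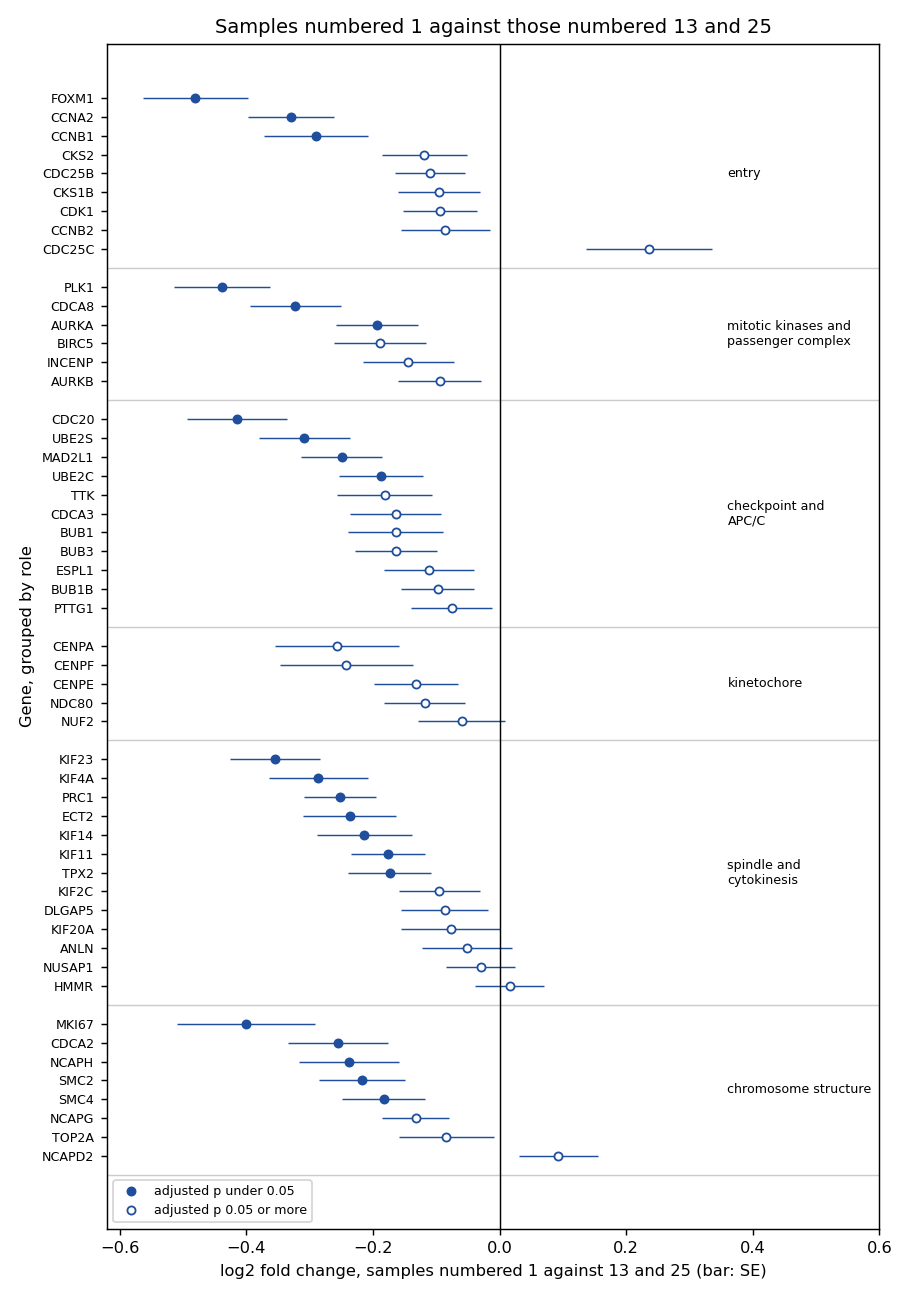
Log2 fold change of samples numbered 1 against those numbered 13 and 25 (x axis) for each of the 52 genes (y axis, grouped by role), with bars for the standard error. Filled points passed an adjusted p of 0.05; all 22 of them lie left of 0, and only HMMR, NCAPD2 and CDC25C lie right of it.

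Among the 9 genes of mitotic entry, 3 (33.3%) were lower in samples numbered 1 and none was higher. Of all genes, 22.2% were lower and 24.1% higher. The roles hold few genes, and their shares were not compared by a test. FOXM1, the forkhead factor that activates G2/M genes, had the largest difference of the list. It stood at 161, 204 and 202 CPM in EV, 159, 214 and 195 CPM in SH2 and 118, 206 and 195 CPM in SH3 (log2 fold change -0.48, SE 0.08, adjusted p = 0.00161). Every sample numbered 1 lay below all others, and SH3 number 1 lowest. CCNA2, cyclin A2, was at 105, 129 and 129 CPM in EV, 120.1, 143 and 133 CPM in SH2 and 95.3, 144 and 126 CPM in SH3 (log2 fold change -0.33, SE 0.07, adjusted p = 0.00359). The groups of numbers did not overlap for it either. CCNB1, cyclin B1, was at 137, 165 and 160.5 CPM in EV, 168, 189 and 169 CPM in SH2 and 122, 194 and 162 CPM in SH3 (log2 fold change -0.29, SE 0.08, adjusted p = 0.0158). Here SH2 number 1 lay above EV numbers 13 and 25, so the numbers overlapped across groups although number 1 was lowest within each. CDK1, the kinase itself, was at 97.1, 111 and 101 CPM in EV, 112, 112 and 112 CPM in SH2 and 102, 121 and 108 CPM in SH3 and did not pass the test (log2 fold change -0.09, SE 0.06, adjusted p = 0.213). Its SH2 samples were almost equal. CCNB2, cyclin B2, had a log2 difference of -0.09, the phosphatase CDC25B one of -0.11, and the CDK subunits CKS1B and CKS2 ones of -0.10 and -0.12, none past the test. CDC25C was the member furthest above 0, with a log2 fold change of 0.24, SE 0.10, adjusted p = 0.0744.

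Of the 6 mitotic kinases and chromosomal passenger genes, 3 (50%) were lower and none was higher, against 22.2% and 24.1% of all genes. PLK1, polo-like kinase 1, was at 64.2, 92.3 and 81.4 CPM in EV, 79.7, 101 and 86.4 CPM in SH2 and 56.9, 96.1 and 84.4 CPM in SH3 (log2 fold change -0.44, SE 0.08, adjusted p = 0.00167), with no overlap between number 1 and the other 6 samples. AURKA, the Aurora kinase of the spindle poles, was at 72.8, 84.4 and 81.7 CPM in EV, 90.8, 104 and 87.4 CPM in SH2 and 73.3, 98.5 and 85.0 CPM in SH3 (log2 fold change -0.19, SE 0.06, adjusted p = 0.0318). Its call was kept in 11 of 18 alternatives, and SH2 number 1 exceeded EV numbers 13 and 25. CDCA8, borealin of the passenger complex, was lower too (log2 fold change -0.32, SE 0.07, adjusted p = 0.00509). The other passenger genes did not pass the test. AURKB, the kinase of that complex, was at 25.0, 28.9 and 26.8 CPM in EV, 28.4, 30.3 and 27.0 CPM in SH2 and 26.4, 28.2 and 28.9 CPM in SH3 (log2 fold change -0.09, SE 0.07, adjusted p = 0.256). BIRC5, survivin, was at 198, 245 and 218 CPM in EV, 249, 259.9 and 236 CPM in SH2 and 186, 261 and 216 CPM in SH3 and just missed the threshold (log2 fold change -0.19, SE 0.07, adjusted p = 0.0537). INCENP, the scaffold, was at 82.7, 90.0 and 88.3 CPM in EV, 78.8, 93.5 and 76.3 CPM in SH2 and 73.1, 81.1 and 89.2 CPM in SH3 (log2 fold change -0.14, SE 0.07, adjusted p = 0.122), and its lowest sample was SH3 number 1.

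Of the 11 genes of the spindle checkpoint and the APC/C, 4 (36.4%) were lower and none higher, against 22.2% and 24.1% of all genes. CDC20, the APC/C activator that the checkpoint restrains, was at 95.4, 125 and 125 CPM in EV, 118, 137 and 137 CPM in SH2 and 81.8, 135 and 123 CPM in SH3 (log2 fold change -0.41, SE 0.08, adjusted p = 0.00249), and number 1 lay below the other 6 samples. MAD2L1 had a log2 fold change of -0.25 (adjusted p = 0.00991). UBE2C, the E2 that starts ubiquitin chains for the APC/C, was at 72.0, 91.3 and 82.2 CPM in EV, 93.7, 102 and 88.2 CPM in SH2 and 76.9, 104 and 84.0 CPM in SH3 (log2 fold change -0.19, SE 0.07, adjusted p = 0.0385), a call kept in 10 of 18 alternatives. UBE2S, the E2 that extends those chains, was at 92.3, 116 and 143 CPM in EV, 128, 119 and 160.0 CPM in SH2 and 102, 114 and 148 CPM in SH3 (log2 fold change -0.31, SE 0.07, adjusted p = 0.00625). The checkpoint kinase BUB1 was at 118, 124 and 129 CPM in EV, 130.4, 136 and 126 CPM in SH2 and 104, 139 and 135 CPM in SH3 (log2 fold change -0.16, SE 0.07, adjusted p = 0.0959). BUB3, its partner at kinetochores, was at 146, 159 and 164 CPM in EV, 171, 175 and 181 CPM in SH2 and 138, 177 and 160.1 CPM in SH3 (log2 fold change -0.16, SE 0.06, adjusted p = 0.0603). Neither passed the test. BUB1B (BUBR1), the checkpoint kinase TTK (MPS1), PTTG1, ESPL1 and CDCA3 had log2 differences from -0.18 to -0.08, all below 0 and none called.

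None of the 5 kinetochore genes was called, against 46.3% of all genes. CENPA, the histone variant of centromeres, came closest (log2 fold change -0.26, SE 0.10, adjusted p = 0.0514). CENPF, a late kinetochore protein, was at 221, 210.0 and 222 CPM in EV, 179.8, 242 and 186 CPM in SH2 and 145, 208 and 212 CPM in SH3 (log2 fold change -0.24, SE 0.11, adjusted p = 0.0815). SH3 number 1 was the lowest for it, while EV number 1 was not low. CENPE, the kinetochore kinesin, was at 81.2, 85.4 and 84.5 CPM in EV, 74.6, 88.2 and 74.0 CPM in SH2 and 67.0, 75.9 and 79.6 CPM in SH3 (log2 fold change -0.13, SE 0.07, adjusted p = 0.123). NDC80 and NUF2, which bind microtubules as parts of 1 complex, had log2 differences of -0.12 and -0.06.

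Of the 13 spindle and cytokinesis genes, 7 (53.8%) were lower and none was higher, against 22.2% and 24.1% of all genes. KIF23, the kinesin MKLP1 of the central spindle, was at 63.0, 74.0 and 73.3 CPM in EV, 64.4, 79.7 and 76.5 CPM in SH2 and 51.7, 79.3 and 74.6 CPM in SH3 (log2 fold change -0.35, SE 0.07, adjusted p = 0.00312). All samples numbered 1 lay below the other 6. KIF11, the kinesin Eg5 that pushes spindle poles apart, was at 119, 143 and 121 CPM in EV, 122, 144 and 118 CPM in SH2 and 109.7, 145 and 123 CPM in SH3 (log2 fold change -0.18, SE 0.06, adjusted p = 0.0292), with a call kept in 11 of 18 alternatives. The chromokinesin KIF4A (-0.29), the spindle midzone protein PRC1 (-0.25), the cytokinesis exchange factor ECT2 (-0.24), the kinesin KIF14 (-0.21) and the Aurora A activator TPX2 (-0.17) were the other genes called, by their log2 fold changes. TPX2 kept its call in 6 of 18 alternatives and KIF14 in 8. KIF20A, the kinesin MKLP2, was at 90.5, 97.5 and 88.3 CPM in EV, 100.4, 105 and 82.8 CPM in SH2 and 77.0, 102 and 90.0 CPM in SH3 and did not pass the test (log2 fold change -0.08, SE 0.08, adjusted p = 0.432). KIF2C, a kinesin that takes microtubules apart, lay at -0.10, the anillin gene ANLN at -0.05, NUSAP1 at -0.03, DLGAP5 at -0.09 and HMMR, a spindle assembly protein, at 0.02, none called.

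Of the 8 genes of chromosome structure, 5 (62.5%) were lower and none was higher, against 22.2% and 24.1% of all genes. MKI67, whose values are given above, had a log2 fold change of -0.40, SE 0.11, adjusted p = 0.0128. Its EV number 1 value overlapped with those of the others, and its call was lost without SH2 number 1, without the SH2 group and without the group term. SMC4 was at 568, 582 and 619 CPM in EV, 536, 610.4 and 606 CPM in SH2 and 484, 578 and 606 CPM in SH3 (log2 fold change -0.18, SE 0.07, adjusted p = 0.0417), with number 1 below the other 6 samples but a call kept in only 7 of 18 alternatives. SMC2, the partner of SMC4 in condensin (-0.22), NCAPH, a condensin I subunit (-0.24), and CDCA2, which recruits a phosphatase to chromosomes at mitotic exit (-0.25), were lower as well by their log2 fold changes. TOP2A was at 477, 488 and 473 CPM in EV, 469, 524 and 415 CPM in SH2 and 395, 492 and 449 CPM in SH3 and did not pass the test (log2 fold change -0.08, SE 0.07, adjusted p = 0.376). The other condensin I subunits, NCAPG and NCAPD2, were not called, with log2 differences of -0.13 and 0.09.

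**Figure D5:**
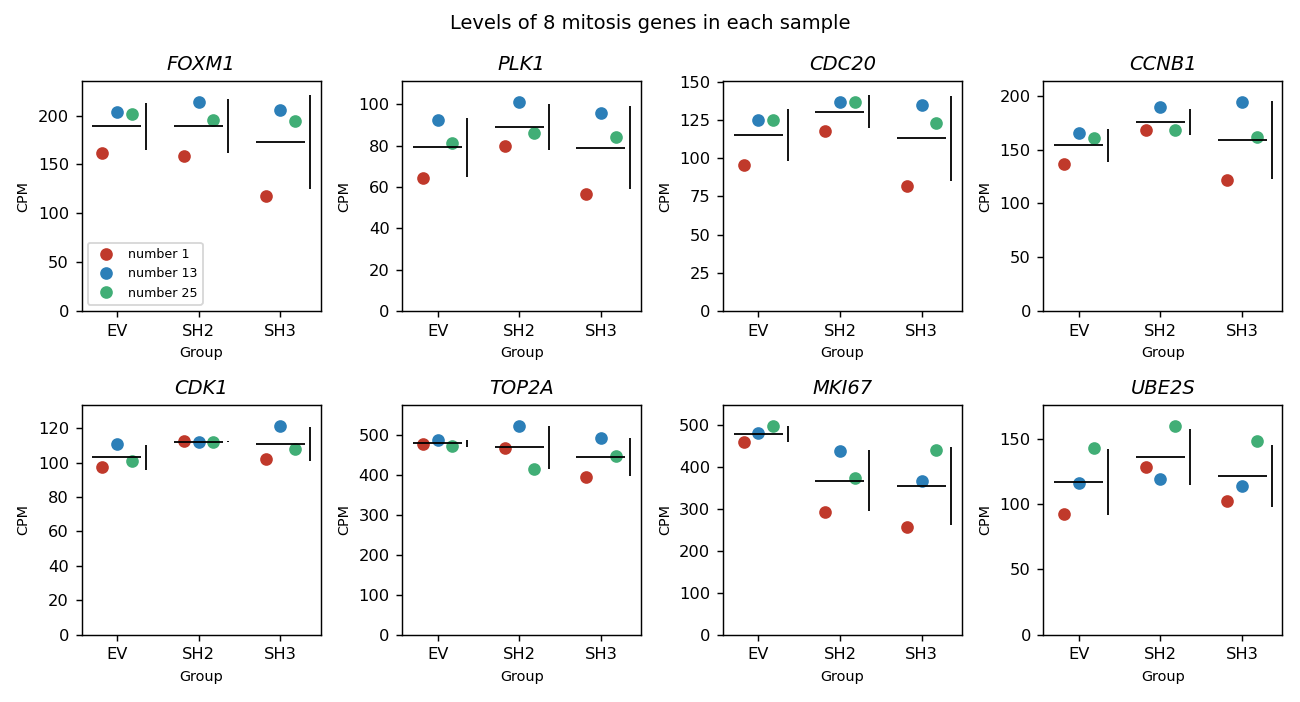
CPM (y axis, from 0) of 8 genes in the 3 groups (x axis). Points are single samples, red for number 1, blue for number 13 and green for number 25, horizontal lines are group means and vertical lines the mean ± SD of the 3 samples. The red points of FOXM1, PLK1 and CDC20 lie below all others, those of CDK1 and TOP2A do not, MKI67 is lower in all hairpin samples, and UBE2S is highest at number 25.

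Samples numbered 25 differed less from those numbered 13. In all, 1 member was called, or 1.92% of the list, against 5.87% of all genes (2.77% higher and 3.1% lower), and it was UBE2S, which was higher at number 25 (log2 fold change 0.37, SE 0.08, adjusted p = 0.0283). In each group UBE2S was highest at number 25. The other members leaned the other way, with 48 of 52 below 0 and a median of -0.12 against 0.00 for all genes. At an unadjusted p under 0.05 there were 19 members (36.5%), against 23.8% of all genes. By log2 fold change, those furthest below 0 were CCNB2 (-0.31, adjusted p = 0.0524), CDC25C (-0.30, adjusted p = 0.148) and KIF2C (-0.28, adjusted p = 0.0504). Without SH3 number 1, 17 members were called, 16 of them lower at number 25, and without the SH3 group 7 were called. Without SH2 number 1 the count was 4. It was 0 without EV number 13, EV number 25, SH2 number 13, SH2 number 25 or SH3 number 25, and 0 without the EV or the SH2 group. Over all alternatives the calls among all genes ranged from 7 to 2750, so these counts cannot be read as particular to the members.

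Whether the number 1 difference varied between groups was tested as an interaction. Number 1 against the mean of 13 and 25 had a median log2 difference over the members of -0.12 in EV, -0.06 in SH2 and -0.29 in SH3. The difference between SH3 and EV had a median of -0.17 with 47 of 52 genes below 0, and that between SH2 and EV one of 0.09 with 13 below 0. Across all genes tested the medians were 0.00 and 0.04, with 49.8% and 42.1% below 0. The Spearman correlation with transcript length was -0.43 and -0.78 across the members. It was -0.10 and -0.35 across all genes with a length, and the part of length was not tested. No member and 0% of all genes passed the test in either interaction, by edgeR or, for the members, by DESeq2. At an unadjusted p under 0.05 there were 3 members for SH3 (FOXM1, CENPF and MKI67, each with adjusted p = 0.606), against 7.89% of all genes, and 0 for SH2, against 1.16%. Each group holds 1 sample numbered 1, so the spread in this test comes from numbers 13 and 25. The standard errors of 0.13 to 0.33 on the log2 scale leave differences of that size undetectable. Larger ones also went uncalled, such as -0.57 for MKI67 between SH3 and EV (SE 0.20).

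Other genes of the pathway were also called lower in samples numbered 1. Of 73 further mitosis genes, 72 were tested, 40 were lower and 1, PSRC1, was higher (log2 fold change 0.21). CDC25A, the CDC25 phosphatase that also acts at the G1/S transition, had the largest difference (-0.60), followed by TRIP13, an ATPase that disassembles checkpoint complexes (-0.57), and CENPN (-0.52). Of 28 S-phase genes, 22 were lower and 1, the licensing factor CDT1, was higher (0.68). The largest falls were those of CDC45 (-0.55), a subunit of the replicative helicase, and POLE2 (-0.53). The shares lower, 55.6% of the further mitosis genes and 78.6% of the S-phase genes, stand beside 22.2% of all genes and 42.3% of the 52.

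Among 21 regulators of these promoters, 10 were lower and 4 higher in samples numbered 1. Together that is 66.7% called, against 46.3% of all genes (22.2% lower and 24.1% higher). MYBL2 (B-Myb), which joins MuvB to activate them, was at 202, 251 and 276 CPM in EV, 236, 284 and 297 CPM in SH2 and 167, 276 and 294 CPM in SH3 (log2 fold change -0.48, adjusted p = 0.00185). E2F7 (-0.49), E2F4 (-0.49), TFDP1 (-0.42) and E2F1 (-0.34) were lower too. The genes that were higher were E2F5 (0.53), the MuvB subunit LIN37 (0.46), TFDP2 (0.31) and RBL2 (0.25), which encodes the pocket protein p130 of quiescent cells. The NF-Y subunits NFYA, NFYB and NFYC did not pass the test. Of 8 CDK inhibitors, CDKN1B (p27) was higher (0.42), CDKN1C (p57) was higher (1.54) and CDKN1A (p21) was lower (-0.40). These calls make up 37.5% of that list, below the 46.3% of all genes. CDKN1C stood at 7.12, 6.02 and 2.63 CPM in EV, 7.67, 4.70 and 2.91 CPM in SH2 and 17.0, 3.61 and 2.15 CPM in SH3, with its highest value in SH3 number 1. No gene of these 4 lists was called in a hairpin comparison, with or without the block.

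The sequence features may be set beside these calls. Of the 17 genes that were lower in samples numbered 1 and had a window, 12 held TTTGAA on the sense strand or TTTAAA, as did 23 of the 27 other members with a window. CCAAT on either strand was in the windows of 15 of the 17 and of 20 of the 27. These counts are a description of the list, and the difference between the groups of genes was not tested.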

How the data were processed

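The authors deposited raw counts, whole numbers for each RefSeq transcript on hg19, with no normalization. The submitters' processing notes name STAR, featureCounts and DESeq2 without saying which step each served, and their versions are not given in the sources used here. The study's methods describe poly(A)-selected, unstranded libraries. Each file held 48104 rows for 25680 symbols, of which 9509 had several rows, and the row with the highest total stood for the gene. Samples were grouped by the hairpin and number in their labels.

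edgeR 4.0.16 in R 4.3.3 (filterByExpr with count and total minimums of 10 and 15, TMM scaling, quasi-likelihood F test, Benjamini-Hochberg adjustment over all 14199 genes, threshold 0.05) was run on all 9 samples, with 1 coefficient per group for the hairpin comparisons and with group and number for the number comparisons. The study's own test, Cuffdiff, needs reads and could not be run. CPM values are scaled by TMM factors, and log2 CPM uses a prior count of 2 for deviations. The fits were tested on simulated data. A count of 0 would allow up to 0.0847 to 0.108 CPM (3 counts), which covers counting error only, and no member was near it. Transcript lengths came from GENCODE lifted to GRCh37, with older symbols matched through RefSeq synonyms, and covered 13195 tested genes and all 52 members. They are those of the transcript marked as canonical, which need not be the RefSeq transcript counted.

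Pairing by number was checked through the correlation of deviations from group means between samples. The 9 same-numbered pairs correlated by 0.398 to 0.731 (mean 0.598), so the numbers were taken to pair the samples. Samples of different number correlated by -0.291 on average. The deviations of a group sum to 0, so that negative value follows largely from the positive one and adds no separate evidence. The pairing comes from the data, since the labels give only the number. No 2 samples of a group agreed within sampling noise. In all, 1 listed marker gene is not reported here.

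The members, lists and number comparisons were chosen with earlier results of these data known. Values in every sample are given for 20 members listed by name, for members called in any hairpin comparison and for the 6 most changed called members of each number comparison. The alternatives were the replicate block, an offset for transcript length, relative log expression scaling (RLE), DESeq2 1.42.0, no filter, summed rows, fewer groups or no group term, and leaving out each sample, number or group.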

Additional observations from a re-analysis of the deposited data

How the results depend on the processing

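With the replicate block, which the pairing of the numbers asks for, 0 members were called in each of the 4 hairpin comparisons, as without it. DESeq2 with the block called 1 member (MKI67) in SH2, 1 in SH3 and 1 in the averaged comparison, and no other hairpin alternative called any. All genes called went from 0 to at most 374 for SH2, 474 for SH3, 622 for the average and 152 for SH3 against SH2 over the alternatives. For number 1 the 22 calls became 37 with the length offset and ranged from 9 to 25 when a sample or a group was left out. The members' median stayed between -0.24 and -0.10. The 6570 genes called in that comparison ranged from 4472 to 6794. For number 25 against 13 the 1 call became 0 without the group term, 3 with RLE scaling, 4 with DESeq2 and 3 without a filter, and ranged from 0 to 17 when a sample or a group was left out. The 833 genes called in that comparison ranged from 7 to 2750. The interaction of SH3 with number 1 went from 0 to 17 genes by DESeq2, none a member. No sign of a called value reversed. The fit with only the groups compared is, for the averaged comparison, the same fit and was not repeated. The cause of these shifts was not tested, beyond the fewer samples where one was left out. Leaving out a sample can leave 1 sample at a number in a group, which is then assumed to vary like the rest. With 9 samples, differences within the standard errors given above were not detectable, and some larger ones, such as the averaged hairpin difference of CKS1B, also went uncalled.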
